A study of Mus musculus with 2 samples.

Results

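The genes described here are 8 members of the mouse stefin A family, Gm5483, Stfa2l1, Stfa1, BC100530, Stfa2, 2010005H15Rik, Stfa3 and Gm5416. They were taken by name from the 11691 genes of the deposited count table. The family was chosen by its summed counts, its spread over cells and its co-detection within neutrophils, so these values are given as descriptions with no test. The cells were myeloid cells of C57BL/6 mouse blood, collected 24 h after the proximal middle cerebral artery had been blocked for a time and reopened, a model of ischaemic stroke. The aged library came from mice of 18 to 24 months and the young library from mice of 2 to 4 months, both after the occlusion. There was 1 library per age and no library without stroke, so each difference below compares these libraries and has no replicate check. The cells had been sorted by antibody for CD11b, a surface protein of myeloid cells, with and without Ly6G, a surface protein of mouse neutrophils. Neither the number of mice behind each library nor the mixing of the sorted fractions is given in the sources used here.

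Stefins are small cytosolic proteins of the cystatin superfamily that lack a signal peptide. They bind tightly and reversibly in the active site cleft of papain-like cysteine proteases such as cathepsins B, H, L and S, and so hold in check protease that has leaked from lysosomes or granules. Humans carry a single stefin A gene, CSTA, known from skin and from leukocytes, whereas the mouse carries a cluster of closely related copies. Stfa1, Stfa2 and Stfa3 encode stefins A1, A2 and A3, and Stfa2l1 is named for its likeness to Stfa2. RefSeq names Gm5483 as Cstdc4, BC100530 as Cstdc5, 2010005H15Rik as Csta2 and Gm5416 as Csta3.

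All 8 members lay within 298.582 kb of chromosome 16 in GENCODE M21 (GRCm38), 5 on the plus and 3 on the minus strand. Along the chromosome came Stfa2l1 (chr16:36156811-36161953), Gm5483 (chr16:36184212-36188111), Gm5416 (chr16:36210403-36217788), 2010005H15Rik (chr16:36221468-36257444) and Stfa1 (chr16:36276951-36285373), all on the plus strand. BC100530 (chr16:36359382-36367748), Stfa2 (chr16:36403992-36408457) and Stfa3 (chr16:36450537-36455392) followed on the minus strand. The coding sequences held 103 codons in Stfa2l1, Stfa2 and Stfa3 and 97 in the other 5. Over the 28 pairs, coding identity ran from 73.4% to 98.0% with a median of 79.8%. The closest pairs were Stfa1 with BC100530 at 98.0%, Gm5483 with 2010005H15Rik at 96.9% and Stfa2l1 with Stfa2 at 96.5%.

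Because a 3′ library reads transcript ends, the last 300 bases decide how well the copies can be told apart. Of the 90-base windows there, 100% were found in no other annotated transcript for Stfa3 and Gm5416, 96.7% for Stfa2l1, 96.2% for Stfa2 and 81.5% for Stfa1. The share was 78.7% for both Gm5483 and 2010005H15Rik, which shared windows with each other, and 58.3% for BC100530, which shared windows with Stfa1 and BC117090. BC117090 lies between Stfa1 and BC100530, had 4 aged and 0 young UMIs in neutrophils and is not among the 8. The annotation that the authors counted on is not given in the sources used here, so single members of these pairs are uncertain and the sum of the 8 is the firmer value. The annotated Gm5416 transcript is its coding sequence alone, without a 3′ untranslated region.

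The sequences just before the transcription starts are shown because most members share long runs of letters there although their abundance differs. They come from RefSeq (GRCm38.p6), which held a promoter for 8 of 8 members. Each run has 150 bases and ends 10 bases after the RefSeq start, and the capitals mark AGAGGAGGAG and ACCTTTAAAACCC. The stretches are chr16:36184072-36184221 for Gm5483, chr16:36156671-36156820 for Stfa2l1, chr16:36277008-36277157 for Stfa1 and chr16:36221422-36221571 for 2010005H15Rik, all on the plus strand. They are chr16:36367561-36367710 for BC100530 and chr16:36455383-36455532 for Stfa3, both on the minus strand.
Gm5483: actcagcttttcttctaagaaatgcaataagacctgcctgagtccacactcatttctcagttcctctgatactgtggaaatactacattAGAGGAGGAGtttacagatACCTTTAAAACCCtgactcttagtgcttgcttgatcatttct
Stfa2l1: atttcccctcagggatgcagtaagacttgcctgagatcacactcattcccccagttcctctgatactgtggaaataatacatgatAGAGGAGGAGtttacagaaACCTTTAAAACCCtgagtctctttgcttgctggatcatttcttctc
Stfa1: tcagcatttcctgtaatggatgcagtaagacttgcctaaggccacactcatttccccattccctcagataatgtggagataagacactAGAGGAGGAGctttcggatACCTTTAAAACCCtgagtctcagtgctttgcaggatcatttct
BC100530: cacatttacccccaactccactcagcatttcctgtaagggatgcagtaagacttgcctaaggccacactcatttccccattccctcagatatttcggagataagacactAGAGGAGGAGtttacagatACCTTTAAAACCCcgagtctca
Stfa3: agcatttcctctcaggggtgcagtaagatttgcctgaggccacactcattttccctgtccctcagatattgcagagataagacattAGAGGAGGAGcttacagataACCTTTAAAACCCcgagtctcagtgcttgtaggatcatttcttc
2010005H15Rik: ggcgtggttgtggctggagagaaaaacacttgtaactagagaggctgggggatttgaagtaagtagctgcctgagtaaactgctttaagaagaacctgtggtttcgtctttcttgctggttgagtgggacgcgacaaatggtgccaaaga

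ACCTTTAAAACCC, the longest run found in at least 7 of the 8 windows, stood in the 300-base promoter window of 7 of 8 members, all but 2010005H15Rik, and in 9 of all 32851 promoters (0.0274%). The other 2 promoters that held it were those of Cstdc3 and Gm7260. Gm7260, an unprocessed pseudogene (chr16:36387978-36391122), lies within the same cluster, between BC100530 and Stfa2. AGAGGAGGAG, the longest run shared by at least 6 members just before it, stood in 6 of 8 members, all but Gm5416 and 2010005H15Rik, against 1.03% of all promoters. Both runs were picked after the sequences had been read. ACCTTTAAAACCC began at position -32 from the RefSeq start in Gm5483, at -36 in Stfa2l1, at -33 in Stfa1 and at -34 in Stfa3. In BC100530 it began at -12 and in Gm5416 at -80. RefSeq and GENCODE starts differed for 2010005H15Rik, Stfa1 and Stfa2. The GENCODE span of 2010005H15Rik, chr16:36221468-36257444, is the longest of the 8. Only the window at its RefSeq start was searched, so a run at another start of that gene would have been missed.

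Motifs of factors that act in myeloid cells were searched on both strands of the same windows. The C/EBP letters TTNNGNAA stood in 6 of 8 members and 40.7% of all promoters, and the PU.1 letters GAGGAA in 6 of 8 and 28.3%. TATAAA stood in 0 of 8 members and 13.6% of all promoters. TGANTCA, the AP-1 letters, stood in Stfa3 (7.81% of all promoters) and GGGCGG, the GC box, in 2010005H15Rik (35.7%). TTTAAAA, which lies inside ACCTTTAAAACCC, stood in 7 of 8 members and 8.74% of all promoters. In the printed stretches no match of the C/EBP or PU.1 letters overlapped a capitalised run.

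The table held 3944 aged and 1849 young cells, with 13752454 and 6440664 unique molecular identifiers (UMIs, each a counted transcript molecule) and medians of 2219 and 2022 UMIs per cell. The libraries shared 12 cell barcodes. Cell types are the authors' deposited labels, and after doublet removal 2616 aged and 1136 young cells were labelled neutrophils, at medians of 1899 and 1631.5 UMIs. All 10 neutrophil markers were detected in them, summing to 423087 CPM (UMIs of the gene divided by all UMIs of the population and scaled to 1e6) in aged and 334998 CPM in young neutrophils. The 11 monocyte markers summed to 2479 and 3566 CPM there, the 6 erythroid markers to 273 and 1001 CPM, and the 6 B cell markers to 6.62 and 4.42 CPM. When all cells were clustered together, 908 and 823 aged cells but only 158 and 106 young cells fell in the first 2 neutrophil clusters. In the third fell 273 aged and 624 young cells. The clustering made no correction between libraries, so a different mix of cells and a library-wide shift cannot be told apart.

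Stefin A transcripts were abundant in neutrophils. The 8 members together gave 10082 UMIs in aged neutrophils, or 1854 CPM (95% Poisson interval 1818 to 1890), and 4901 UMIs in young neutrophils, or 2408 CPM (2341 to 2477). Counted as a single gene, the family would stand in place 44 of 10495 detected genes in aged and place 39 of 9610 in young neutrophils. All intervals given are 95% and cover counting error only. Since the members spread over cells far more widely than random sampling of molecules, the intervals are narrower than the variation between cells.

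In every other named population of both libraries the summed level was lower than in neutrophils. Monocytes held 460 UMIs, 71.1 CPM (64.7 to 77.9), in the aged library and 252 UMIs, 69.6 CPM (61.3 to 78.7), in the young library. The level in neutrophils was thus 26.1 times (23.7 to 28.7) that in monocytes in the aged library and 34.6 times (30.5 to 39.4) in the young library. Dendritic cells, labelled cDC, held 96.1 CPM (74.9 to 121) from 70 UMIs in the aged library and 46.1 CPM (27.3 to 72.9) from 18 UMIs in the young library. NK cells held 78.9 CPM (39.4 to 141) and 81.1 CPM (41.9 to 142) from 11 aged and 12 young UMIs. Cells labelled Fol B-cell (follicular B cells) held 136 CPM (95.4 to 187) from 37 aged UMIs and 44.7 CPM (9.22 to 131) from 3 young UMIs. That label is mixed: when all cells were clustered together, 37 of its cells fell in a B cell cluster and 18 in a dendritic cell cluster that also held 172 cells labelled monocytes. In the aged cells of that label the 6 B cell markers summed to 3777 CPM, the 8 dendritic cell markers to 16160 CPM and the 11 monocyte markers to 5814 CPM, and in the young cells to 5711, 19399 and 4816 CPM. Mast cells were labelled in the aged library only and held 4 UMIs, 41.8 CPM (11.4 to 107). In the aged library the order after neutrophils and the cells labelled Eryth-Neutro was the Fol B-cell label, dendritic cells, NK cells, monocytes and mast cells, and the intervals of neighbours in this order overlap. In the young library the intervals of all populations other than neutrophils overlap.

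The low level outside neutrophils can be set beside that of other neutrophil transcripts in the same cells. Stefin A in monocytes was at 3.83% of its neutrophil level in the aged and 2.89% in the young library, while the median of the 10 neutrophil markers was 5.95% and 4.32%. In NK cells stefin A was at 4.26% and 3.37% and the marker median at 8.04% and 3.54%. In the cells labelled Fol B-cell stefin A was at 7.31% and 1.86% and the marker median at 5.78% and 3.90%. The aged value rests on 1 cell, which held 14 of the 37 UMIs: without it the level was 85.7 CPM, or 4.62% of that in neutrophils, below the marker median of 5.46% in the same cells. Gm5483 and Stfa2l1 gave 53.0% and 31.1% of the stefin A UMIs of aged monocytes, and 46.8% and 34.5% of those of young monocytes. Gm5483 thus led in monocytes of both libraries. A few cells carried many of these UMIs. In aged monocytes 4 cells with at least 10 stefin A UMIs held 10.4% of the monocyte total, and in young monocytes 2 cells held 15.1%. In those cells the neutrophil markers took a median of 8.85% and 6.44% of all UMIs, against 1.93% and 1.42% over all aged and young monocytes. Whether the UMIs outside neutrophils are transcripts of those cells was not tested.

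The cells labelled Eryth-Neutro were few, 15 aged and 13 young. They held 841 CPM of stefin A (624 to 1109) from 50 aged UMIs and 56.3 CPM (15.3 to 144) from 4 young UMIs. A single aged cell held 21 of the 50 UMIs, and without it the aged level was 537 CPM. The erythroid markers summed to 656051 CPM in these aged cells and 885812 CPM in the young cells, and the neutrophil markers to 107572 and 14520 CPM.

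**Figure D1:**
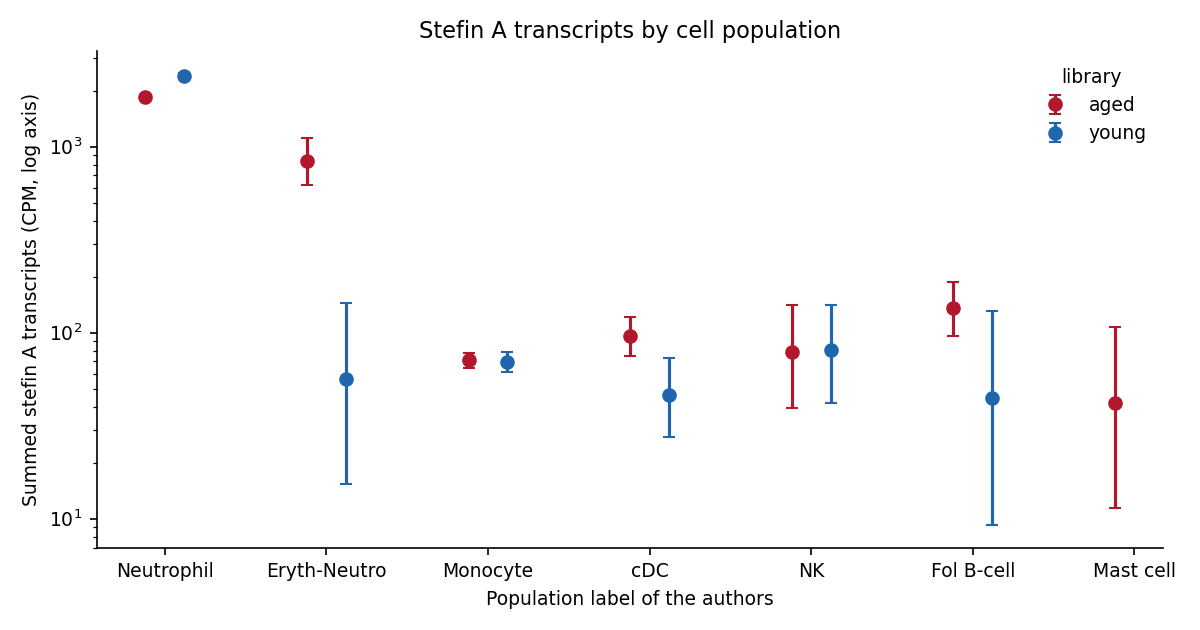
Summed level of the 8 stefin A members in CPM (log axis) by the authors' population label, with 95% Poisson intervals, aged library in red and young library in blue. Neutrophils stand at 1854 and 2408 CPM, where the intervals are smaller than the points, and monocytes at 71.1 and 69.6 CPM.

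Gm5483 and Stfa2l1 made up most of the family's transcripts in neutrophils, and their order differed between the libraries. Gm5483 had 4713 UMIs and 867 CPM in aged neutrophils, against 1999 UMIs and 982 CPM in young neutrophils. Stfa2l1 had 3309 UMIs and 608 CPM in aged neutrophils, against 2108 UMIs and 1036 CPM in young neutrophils. Gm5483 thus led in the aged library with 46.7% of the family (45.8% to 47.7%), against 40.8% (39.4% to 42.2%) in the young library. Stfa2l1 led in the young library, with 32.8% (31.9% to 33.7%) of the family in aged and 43.0% (41.6% to 44.4%) in young neutrophils. A 3′ library counts molecules without regard to transcript length, so these CPM values are not divided by length.

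The other 6 members were less abundant. Stfa1 stood at 139 CPM in aged and 180 CPM in young neutrophils, with 7.50% and 7.47% of the family. BC100530, its near copy, stood at 108 and 99.8 CPM, with 5.81% and 4.14% of the family. Stfa2 had 279 aged and 84 young UMIs, at 51.3 and 41.3 CPM. 2010005H15Rik had 230 aged and 50 young UMIs, at 42.3 and 24.6 CPM. Stfa3 had 136 aged and 53 young UMIs, at 25.0 and 26.0 CPM, and these 2 levels differed by less than counting error. Gm5416 was the lowest, with 73 aged and 38 young UMIs, at 13.4 and 18.7 CPM.

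Between the libraries the family sum was 0.770 times as high in aged as in young neutrophils (0.744 to 0.797), and it stayed below 1 under each scaling tried, at 0.954 with TMM scaling and 0.961 with DESeq2 size factors, both meant to offset a few dominant transcripts. The median of all 4740 genes with at least 50 UMIs was itself at a log2 ratio of -0.24, and relative to that median gene the family stood at 0.910. TMM scaling put that median at 0.07 and DESeq2 size factors at 0.08. With the members, S100a8, S100a9 and Retnlg left out of the CPM total the family ratio was 0.885.

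Of the 8 members, 1 was at least 1.5-fold higher in aged neutrophils, against 3.63% of all genes (172 genes), and 1 was at least 1.5-fold lower, against 20.4% of all genes (966 genes). These were 2010005H15Rik at 1.72 (1.26 to 2.39) and Stfa2l1 at 0.587 (0.556 to 0.621). Under TMM scaling 2 members were past 1.5-fold higher (10.5% of all genes) and 0 past 1.5-fold lower (7.09%), the higher ones being 2010005H15Rik and Stfa2. On the CPM scale 0 members were past 2-fold, against 0.992% of all genes higher and 5.34% lower. Other scalings put 2010005H15Rik past 2-fold, at 2.13 with TMM scaling (2.76% of all genes higher) and 2.15 with DESeq2 size factors (2.83%). With cells thinned to 500 UMIs it was at 2.45 (1.08% of all genes), with a wide interval of 1.28 to 5.15. Only 7 young neutrophils held it at that depth. Stfa2l1 was below 1 and 2010005H15Rik above 1 under each alternative tried.

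The remaining members lay between these. Stfa1 was at 0.773 (0.681 to 0.878), below 1 under each alternative tried, though with an interval that includes 1 after TMM scaling, at 0.958 (0.845 to 1.09). Gm5483 was at 0.882 (0.837 to 0.930), but at 1.09 after TMM scaling, 1.10 with DESeq2 size factors and 1.01 with the most abundant transcripts left out of the total. BC100530 was at 1.08 (0.919 to 1.27), Stfa2 at 1.24 (0.970 to 1.61), Stfa3 at 0.960 (0.694 to 1.34) and Gm5416 at 0.719 (0.479 to 1.09), all with intervals that include 1 on the CPM scale. TMM scaling put BC100530 at 1.34 (1.14 to 1.58) and Stfa2 at 1.54 (1.20 to 1.99), and DESeq2 size factors at 1.35 (1.15 to 1.59) and 1.55 (1.21 to 2.00), above 1, whereas Stfa3 and Gm5416 had intervals that include 1 under both. The young cell richest in stefin A held 32 of the 203 young BC100530 UMIs. Without that cell BC100530 was at 1.28 (1.08 to 1.53), an alternative chosen after the data were seen. The UMIs of 2010005H15Rik also came from few cells: 14 aged cells with at least 5 UMIs held 63.9% of its UMIs, and 4 young cells held 66.0%.

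**Figure D2:**
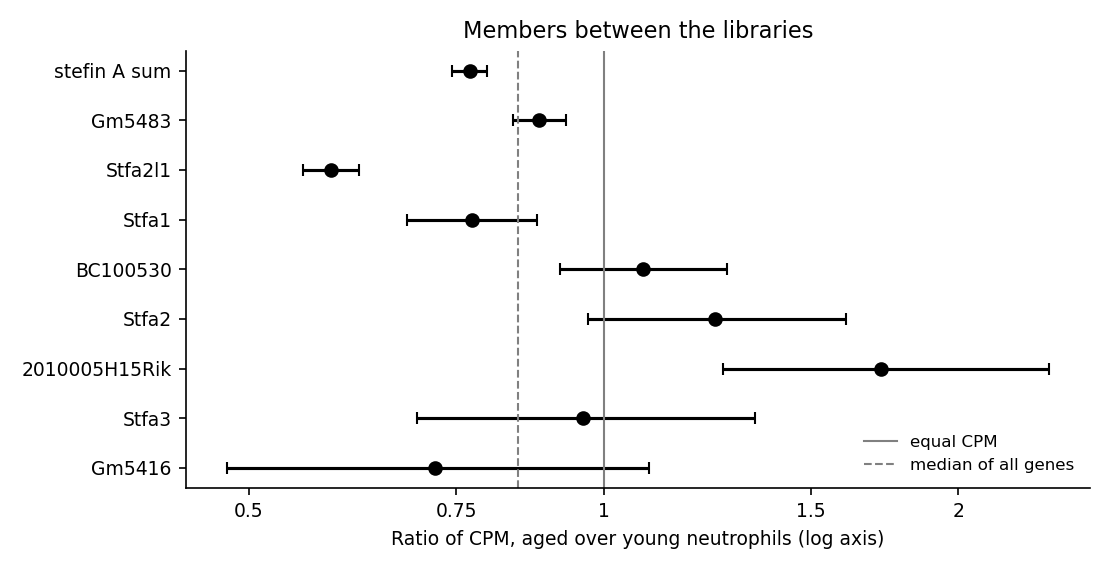
Ratio of CPM in aged over young neutrophils (log axis) for the family sum and each member, with 95% intervals of counting error. The solid line marks equal CPM and the dashed line the median of all genes with at least 50 UMIs, and Stfa2l1 at 0.587 and 2010005H15Rik at 1.72 are farthest apart, while Gm5483 lies below the solid line here and above it after TMM scaling.

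In monocytes the family sum was at a ratio of 1.02 aged over young (0.874 to 1.20). Gm5483 stood at 37.7 CPM in aged and 32.6 CPM in young monocytes, a ratio of 1.16 (0.925 to 1.45), and Stfa2l1 at 22.1 and 24.0 CPM, a ratio of 0.920 (0.700 to 1.22). Neither was past 1.5-fold, where 5.87% of 7787 genes were higher and 8.76% lower, nor past 2-fold, where 1.41% were higher and 2.17% lower. The other members had 2 to 19 UMIs in either library.

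Stefin A transcripts were spread very unevenly over neutrophils. To compare cells at a common depth, each cell was thinned at random to 500 UMIs. At that depth 37.1% of aged (35.2% to 39.0%) and 40.9% of young neutrophils (38.1% to 43.9%) held a stefin A UMI, with intervals that overlap. Without thinning the shares were 58.1% and 55.7%, an order that goes against the CPM and is not read as a difference. Among NK cells, given as a background, the share was 1.72% in the aged and 5.80% in the young library at 500 UMIs, and 19.0% and 15.9% without thinning, at medians of 2314 and 2009 UMIs. Among the cells labelled Fol B-cell it was 12.2% and 7.14% at 500 UMIs and 24.4% and 21.4% without, at medians of 5717 and 3463.5 UMIs. Among monocytes it was 3.18% and 2.97% at 500 UMIs.

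Cells without a stefin A UMI and cells with many were both more frequent than a random draw from a common mean gives. The mean at 500 UMIs was 0.987 UMIs per aged and 1.20 per young neutrophil. No stefin A UMI was found in 62.9% of aged and 59.1% of young cells, where a Poisson distribution of the same mean has 37.3% and 30.2%. The variance was 3.61 times the mean in aged and 4.35 times in young neutrophils, where a Poisson distribution has equal variance and mean. The 10% of cells with most held 56.1% of the stefin A UMIs in the aged and 54.6% in the young library, and 145 aged cells (5.54%) and 87 young cells (7.66%) held 5 or more.

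**Figure D3:**
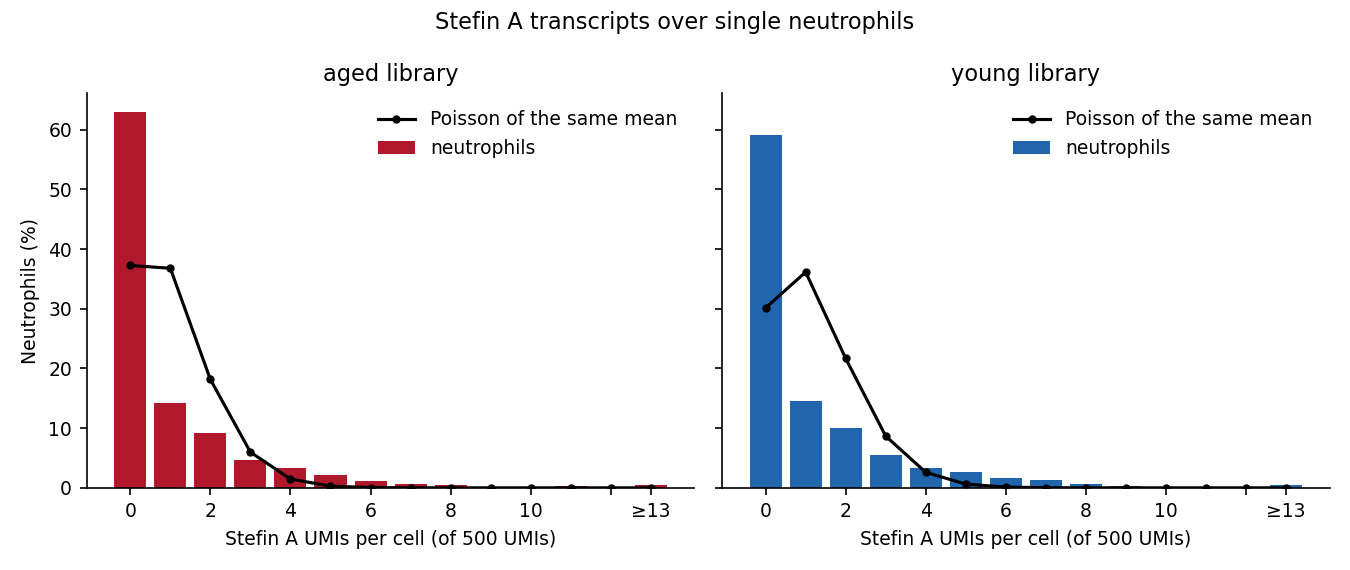
Share of neutrophils (%) by the number of stefin A UMIs in a cell thinned to 500 UMIs, aged library on the left and young library on the right, with a Poisson distribution of the same mean as a black line. Cells with 0 make up 62.9% of aged and 59.1% of young neutrophils, above the line at 37.3% and 30.2%, and the bars exceed the line again at 4 to 6 UMIs.

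At full depth the range was wide. Aged neutrophils had quartiles of 0, 1 and 5 stefin A UMIs and a highest value of 66, and young neutrophils quartiles of 0, 1 and 6 and a highest value of 135. Cells with 10 or more, 335 aged (12.8%) and 167 young (14.7%), held 58.8% and 64.5% of all stefin A UMIs of neutrophils. The richest aged cell held 66 among its 2401 UMIs, of which 22 were Gm5483, 22 Stfa1, 12 Stfa2l1 and 9 BC100530. The next aged cell held 64 among 2269 UMIs, with 31 of Gm5483, 20 of Stfa1 and 12 of 2010005H15Rik but 0 of Stfa2l1. The richest young cell held 135 among 1867 UMIs, with 39 of Gm5483, 38 of Stfa1, 32 of BC100530 and 16 of Stfa2l1.

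Most single members were uneven as well. At 500 UMIs Stfa3 and Gm5416 in both libraries and 2010005H15Rik in young cells had means under 0.02 UMIs per cell, too sparse to judge. At 500 UMIs the variance of Gm5483 was 3.33 times its mean in aged and 3.40 times in young neutrophils, in place 8 of 1577 and place 7 of 1856 genes. Among genes of like mean the median was 1.04 and 1.07. The same quantity was 2.86 and 3.05 for Stfa1, 2.82 and 2.46 for BC100530, and 1.97 and 2.35 for Stfa2l1. It was 2.08 and 1.53 for Stfa2, 3.75 and 1.90 for 2010005H15Rik, held by only 7 young cells, and 1.28 and 1.72 for Stfa3. Gm5416 was at 1.39 in aged and 0.994 in young neutrophils, where only 8 young cells held it at that depth. At full depth it gave 1.41 UMIs per positive young cell. Genes of like abundance had a median of 1.03 there, and 2 of 1503 were higher. For 2 other cystatins it stayed near 1: Cstb, which encodes stefin B, was at 1.07 and 1.06, and Cst3, which encodes the secreted cystatin C, at 1.03 and 1.13.

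Seen per positive cell, members gave many molecules in few cells. Gm5483 was detected in 801 aged neutrophils (30.6%) with 5.88 UMIs per positive cell, and in 335 young neutrophils (29.5%) with 5.97. The median of genes of like abundance was 2.13 and 2.14, and none of 85 aged and 92 young like genes was higher. Stfa1 was detected in 152 aged cells (5.81%) with 4.97 UMIs each and in 82 young cells (7.22%) with 4.46, where like genes had medians of 1.18 and 1.21. Stfa2l1 was detected in 1039 aged cells (39.7%) with 3.18 UMIs each and in 453 young cells (39.9%) with 4.65. At 500 UMIs 19.5% of aged (18.0% to 21.0%) and 26.8% of young neutrophils (24.2% to 29.4%) held Stfa2l1. The full-depth shares were nearly equal and the intervals count cells of 1 library per age, so no difference by age is read. BC100530 gave 3.88 UMIs in each of 151 aged and 4.61 in each of 44 young positive cells. Stfa3 gave 1.74 and 1.83, and Gm5416 1.43 and 1.41.

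Cells rich in the family were mostly led by a single member. Among cells with 10 or more stefin A UMIs, a median of 2 members was detected in either library, and the leading member gave a median of 73.7% of the stefin A UMIs in aged and 68.4% in young cells. Gm5483 led in 219 aged and 95 young cells, Stfa2l1 in 62 and 58, Stfa1 in 28 and 9, BC100530 in 17 and 3, Stfa2 in 5 and 0, and 2010005H15Rik in 4 and 2. In the 251 aged and 148 young cells with 10 or more UMIs of Gm5483 and Stfa2l1 together, Gm5483 made up 73.9% and 56.3% of them when pooled. From cell to cell this share ran from 0% to 100% in both libraries. Its SD was 29.4 percentage points in aged and 32.4 in young cells, whereas counting alone would give 11.6 and 12.8.

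Members were nonetheless found in the same cells more often than the product of their shares gives. At 500 UMIs this was so for 27 of 28 pairs in aged and 23 of 28 in young neutrophils, with median ratios of observed to expected cells of 2.30 and 2.58. Without thinning it was so for 28 and 27 pairs, with medians of 2.25 and 2.00. Correlations were weak: the median Pearson r over pairs was 0.06 in 2616 aged and 0.08 in 1136 young cells at 500 UMIs, and 0.11 in both on log values at full depth. Cells share their library and differ in depth, and no p-value is given.

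The clearest pair was Gm5483 with Stfa2l1, whose starts lie 27.4 kb apart. Both were detected in 449 aged cells, where the product of the shares gives 318, and in 203 young cells, where it gives 134, with r of 0.26 and 0.34. Gm5483 was found in 43.2% of aged neutrophils with Stfa2l1 and 22.3% of those without it, and in 44.8% and 19.3% of the young ones. Stfa2 and Stfa3, 46.9 kb apart, shared 23 aged cells against 3.13 by the product and 6 young cells against 1.20, with r of 0.26 and 0.16. BC100530 and Stfa2 shared 24 aged cells against 6.06 and 8 young cells against 1.82, with r of 0.19 and 0.18. Stfa1 and 2010005H15Rik shared 17 aged cells against 4.36 and 7 young cells against 1.01, with r of 0.17 and 0.21.

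Pairs that lie close together on the chromosome had the higher median correlations. At full depth the 7 pairs of direct neighbours among the members had a median r of 0.17 in aged and 0.19 in young neutrophils, and the other 21 pairs 0.10 and 0.09. The 13 pairs within 100 kb stood at 0.16 and 0.16 and the 15 pairs beyond at 0.06 and 0.09. At 500 UMIs these medians were 0.10 and 0.09 within 100 kb and 0.05 and 0.07 beyond. Over the 28 pairs, r in aged and in young cells was related at a Pearson r of 0.70 at full depth but only 0.35 at 500 UMIs. Spearman's rho between distance and r over the 28 pairs was -0.62 in aged and -0.51 in young cells, and -0.39 and -0.40 at 500 UMIs. These pairs share members and are not independent. The 3 pairs at 95% coding identity or more, in which reads could be split between copies, had r of 0.10 to 0.16 in aged and 0.11 to 0.22 in young cells. Distance goes with strand in this cluster: the 13 pairs on the same strand had medians of 0.16 and 0.16, and the 15 on opposite strands 0.07 and 0.09. The nearest pair on opposite strands lay 90.8 kb apart and the farthest on the same strand 120 kb, so strand can hardly be told apart from distance. Distance among pairs on the same strand alone was not tested.

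**Figure D4:**
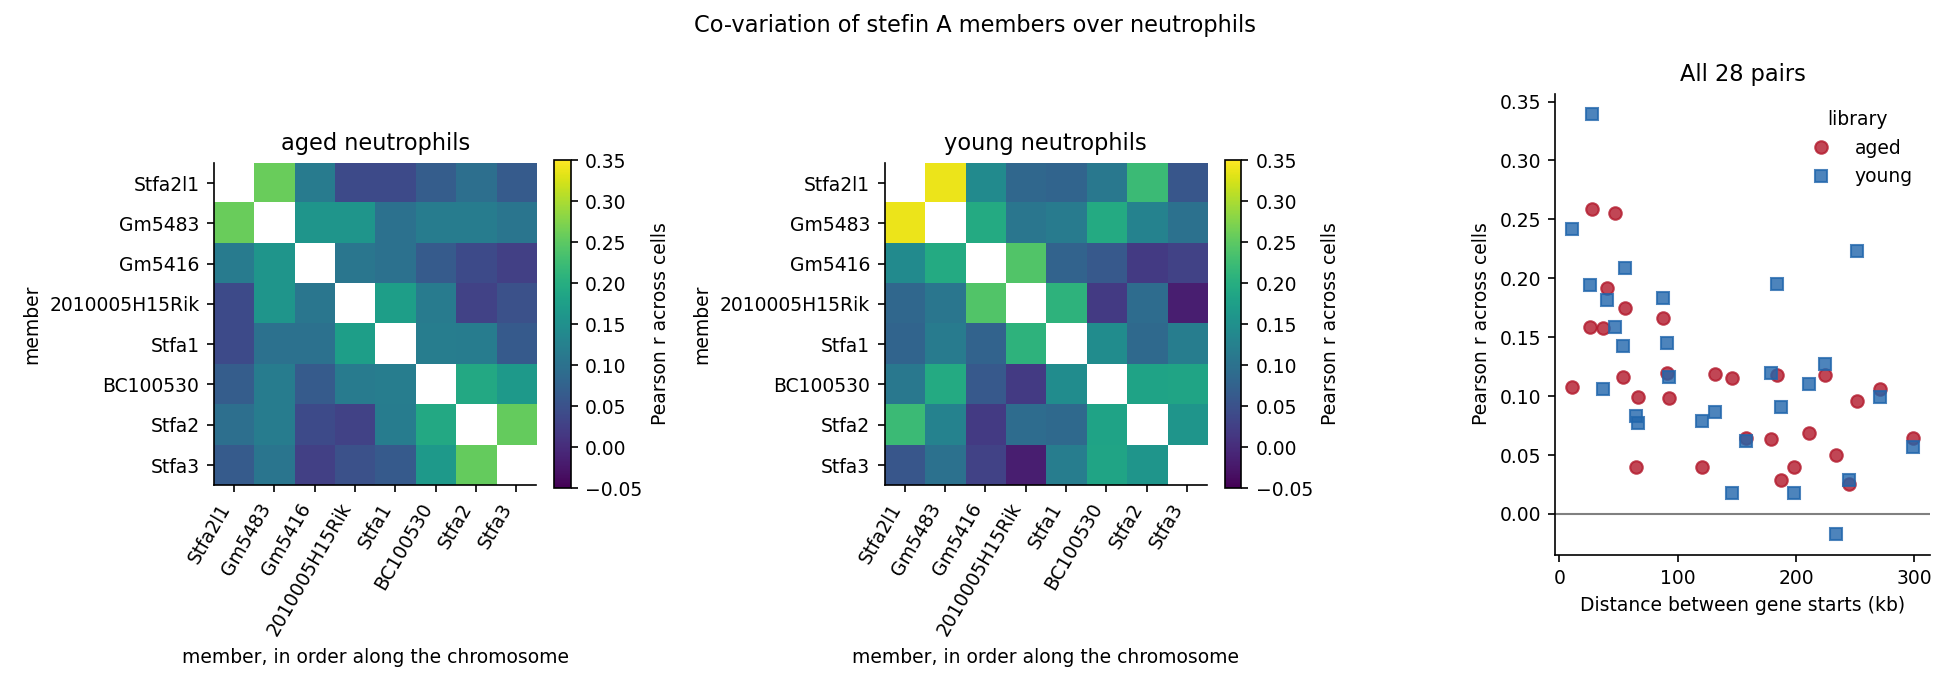
Pearson r across neutrophils for each pair of members in order along the chromosome, aged library at the left and young library in the middle, and r against the distance between gene starts (kb) at the right for all 28 pairs. The pair Gm5483 and Stfa2l1 reached 0.26 and 0.34, and the rho between distance and r was -0.62 in aged and -0.51 in young cells.

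Other genes followed the family across neutrophils weakly. Each member was correlated with the sum of the other 7 at an r of 0.12 to 0.32 in aged and 0.10 to 0.36 in young cells, with Gm5483 at 0.32 and 0.36. Over 2401 other genes, r with the family sum ran from -0.08 to 0.10 in aged and from -0.12 to 0.10 in young cells, so that Stfa3, the lowest member in young cells, lay within the range of the other genes. The genes with the highest value in both libraries were Gm5150 (0.05 and 0.05), Ifitm1 (0.07 and 0.05), B430306N03Rik, Zmynd11, Tab2, Ier3, Arih1, Ccm2, Ccl4 (0.04 and 0.04) and Cfap43. The lowest were Lcn2 (-0.08 and -0.05), a protein of specific granules, Rlim, Phkg2, Smpdl3a and Gskip. Values this small in sparse counts are no finding, and r of the same gene in the aged and young libraries was itself related at a Pearson r of only -0.04. As a scale, Camp and Ngp, 2 genes of granule proteins, had an r of 0.26 in aged and 0.22 in young neutrophils. Isg15 and Ifit1, 2 interferon-induced genes, had 0.22 and 0.26, and Isg15 and Ifit3 0.19 and 0.18. Other pairs differed more between the libraries. Camp and Ltf had 0.40 and -0.006, with only 2 young Ltf UMIs, and Ccl3 and Ccl4 had 0.11 and -0.006. Cstb and Slpi had -0.0005 and 0.008.

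Gene programmes of neutrophils had values of similar size. The sum of the granule and immature genes had an r of -0.09 in aged and -0.01 in young cells with the family, that of the mature genes 0.07 and -0.03, and that of the interferon genes 0.06 and 0.00. Total UMIs of the cell were at -0.02 and 0.05. The genes around the cluster gave values of the same size: over the measured neighbours within 500000 bases on each side, r lay between -0.05 and 0.07 in the 2 libraries. Hcls1, an abundant leukocyte gene among them, was at 276 CPM in aged and 317 CPM in young neutrophils with r of 0.00 and 0.04. Several other neighbours were sparse: Wdr5b had 3 aged and 1 young UMIs, Ccdc58 7 and 2, and Slc15a2 18 and 6. A small r in such genes cannot show whether they follow the family.

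**Figure D5:**
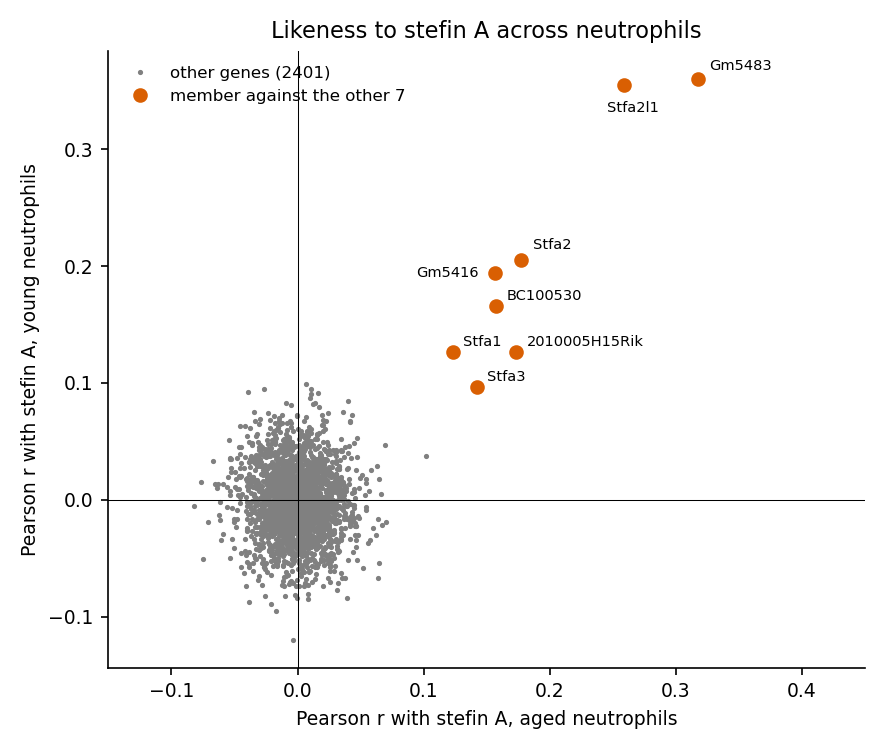
Pearson r with stefin A across aged neutrophils (horizontal) and young neutrophils (vertical), for 2401 other genes against the family sum (grey) and for each member against the sum of the other 7 (orange). The members stand at 0.12 to 0.32 and 0.10 to 0.36, and the other genes at -0.08 to 0.10 and -0.12 to 0.10.

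The proteases that stefins inhibit and the other inhibitors of neutrophils gave a varied picture. Of 11 cysteine cathepsins and legumain, 7 had at least 50 UMIs, and 1 was at least 1.5-fold higher and 1 lower in aged neutrophils, beside 3.63% of all genes higher and 20.4% lower, with a median log2 ratio of -0.13 against -0.24 over all genes. Ctsl, cathepsin L, was at 34.6 CPM in aged and 21.1 CPM in young neutrophils, a ratio of 1.64 (1.17 to 2.33), and Ctsz, cathepsin Z, at 55.5 and 83.5 CPM, a ratio of 0.665 (0.549 to 0.807). Ctsb, Ctsh and Ctss, for cathepsins B, H and S, stood at 120, 107 and 102 CPM in aged and 131, 114 and 115 CPM in young neutrophils. Each of these single genes stood below the stefin A sum in both libraries, but that sum adds several genes. Among single members, Gm5483, Stfa2l1 and Stfa1 stood above each of these cathepsins in both libraries. The other members stood below Ctsb. Protein amounts were not measured.

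Of 15 names listed as other cystatins, 4 were in the count table. The list included Csta2 and Csta3, the RefSeq names of the members 2010005H15Rik and Gm5416. Of the 4, 2 had at least 50 UMIs and neither was past 1.5-fold. Cstb was at 161 CPM in aged and 128 CPM in young neutrophils, a ratio of 1.26 (1.09 to 1.45), and Cst3 at 710 and 1004 CPM, a ratio of 0.708 (0.670 to 0.747). Of 16 other protease inhibitors, 9 had at least 50 UMIs, with 2 past 1.5-fold higher, 2 lower and a median log2 ratio of -0.13, beside the same shares of all genes. Among the most abundant, Wfdc17 and Wfdc21, which carry a whey acidic protein domain, were at ratios of 0.921 and 0.864, and Slpi, an inhibitor of neutrophil elastase, at 0.652 (0.637 to 0.669). Timp2, an inhibitor of metalloproteases, was at 0.915 (0.821 to 1.02). The other 3 past 1.5-fold are named after their values were seen. Serpinb1a, which blocks elastase and related enzymes of neutrophil granules, stood highest of the 9 at a ratio of 3.89 (3.11 to 4.94), from 864 aged and 83 young UMIs. Serpinb6a was at 1.56 (0.798 to 3.35) and Spint2 at 0.430 (0.248 to 0.748). Of 4 serine protease genes, Prtn3 and Prss57 had at least 50 UMIs, at 1.17 (0.813 to 1.71) and 0.426 (0.251 to 0.727).

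Lists of genes of the neutrophil state had other values than the family. Of 21 measured granule and immature genes, 8 were at least 1.5-fold higher and 1 lower in aged neutrophils, with a median log2 ratio of 0.42, beside 3.63% of all genes higher and 20.4% lower and a median of -0.24. Of 20 mature genes, 0 were higher and 8 lower, with a median of -0.33, and of 12 measured interferon genes, 0 were higher and 4 lower, with a median of -0.40. Under TMM scaling, where 10.5% of all genes were higher and 7.09% lower and the median gene stood at 0.07, the granule and immature list had 13 higher and 0 lower with a median of 0.73. The mature list then had 2 higher and 5 lower with a median of -0.02, and the interferon list 1 higher and 1 lower with a median of -0.09. The median over the 8 stefin A members was -0.12 on the CPM scale. The part of these lists in the stefin A ratios was not tested.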

How the data were processed

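Droplet single-cell RNA was counted in 1 aged and 1 young library. Per the submitters' processing notes the authors used Cell Ranger 2.1.1 and mouse build mm10, and the deposited table holds unnormalised UMI counts, with the authors' population label for each cell. How cells and genes were filtered is not given in the sources used here. The depth was 13752454 and 6440664 UMIs.

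Doublet scores came from scrublet in scanpy 1.11.5. Its threshold called 0 aged and 4 young cells, so the highest scores were removed at 8 per 1000 cells for each 1000 cells, 124 aged (3.14%) and 27 young (1.46%). Counts were summed per label and library and divided by the total (CPM), with exact Poisson intervals for levels, exact conditional binomial intervals for ratios and Clopper-Pearson intervals for shares (scipy 1.17.1), all at 95%. With 1 library per age no test was made. Ratios of single genes needed 50 UMIs over both libraries. Thinning drew 500 UMIs per cell without replacement, and no cell was shallower. Full-depth correlations used log(1 + counts per 10000). The ratio intervals, a ranking by correlation and the thinning were tested on simulated data. The measures of spread and co-detection were not. Scaling alternatives used TMM factors from edgeR 4.0.16 and size factors from DESeq2 1.42.0 on the summed counts, and the others were other totals, no doublet removal, own clusters, other depths per cell, equal weight of cells and other minimum counts.

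The members and the gene lists were chosen with earlier results of these data known. Named were all 8 members, the 10 genes of highest r in both libraries, the 5 of lowest r, and up to 4 genes with most UMIs of each list. Ctsl, Hcls1, Camp, Ngp, Ltf, Isg15, Ifit1, Ifit3 and Ccl3 were named after their values were seen. Xist and the genes of immunoglobulins and T cell receptors were left aside.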

Additional observations from a re-analysis of the deposited data

How the results depend on the processing

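With CPM as the base, the family ratio of aged over young neutrophils, 0.770, became 0.954 with TMM scaling, 0.961 with DESeq2 size factors, 0.885 with the members, S100a8, S100a9 and Retnlg left out of the total and 0.824 with cells thinned to 500 UMIs. Gm5483, at 0.882 as reported, was at 1.09, 1.10 and 1.01 under the first 3 of these. Members at least 1.5-fold higher numbered 2 with TMM scaling (10.5% of all genes) and 2 with DESeq2 size factors (10.8%), in place of 1 (3.63%). Members at least 1.5-fold lower numbered 0 under both (7.09% and 6.88% of all genes) and 0 with those transcripts left out of the total (10.3%), in place of 1 (20.4%). With equal weight for each cell they numbered 2, a setting without a share of all genes beside it. The share of all genes thus moved with the scaling as well. The share of neutrophils with a stefin A UMI was 58.1% in aged and 55.7% in young cells without thinning, and 47.6% and 50.6% at 1000 UMIs, so the order of the libraries at full depth was the opposite of that at 500 UMIs. The share held by the top 10% of aged cells was 51.4% without thinning and 53.3% at 1000 UMIs. Without doublet removal the level in aged neutrophils was 22.6 times that in aged monocytes. The scaling and thinning alternatives differ by construction in the total or the depth, and the cause of the others was not tested. Own clusters in place of the deposited labels, a total without ribosomal and mitochondrial genes and a common lowest depth left the family ratio between 0.749 and 0.770. No paired analysis was possible because each age has 1 library. Members with under 100 UMIs in a library, Stfa2, 2010005H15Rik, Stfa3 and Gm5416, are limited by depth.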
